A study of Mus musculus with 20 samples.

Results

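The genes that encode the main proteins of mouse milk were followed through breast tumors and through tumor cells grown in culture. They were chosen by symbol as 10 of the 45706 gene identifiers counted: the caseins Csn1s1, Csn1s2a, Csn1s2b, Csn2 and Csn3, the whey proteins Wap and Lalba, the mucin-like Glycam1, and Btn1a1 and Mfge8 of the milk fat globule.

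RNA-seq was made of 20 libraries in 6 groups, to ask what loss of the lysosomal protease cathepsin D (Ctsd) does in mammary cancer. All mice carried MMTV-PyMT, in which the MMTV promoter drives the polyoma middle T oncogene in mammary epithelium, on a C57BL/6N background. Tumors came from animals aged 18 weeks, 4 labelled wild type, called control tumors here, and 4 Ctsd-/-, in which cre under the same MMTV promoter had removed the floxed exon 2 of Ctsd in the mammary epithelium, so that other exons and other cells still give Ctsd counts. By the methods controls may carry untargeted or floxed Ctsd alleles and are competent for cathepsin D, and the labels do not give the allele of each control tumor. The cells were immortalized primary cells of end-stage tumors, from a Ctsd+/+ and an MMTV-cre;Ctsd-/- animal, both with PyMT. They were kept in medium with 1% fetal calf serum. The groups named 1% FCS spent 10 days in it and those named 1% FCS LT spent 12 weeks, with 3 libraries for each genotype and time. Each genotype of cells is 1 line, so line and genotype cannot be told apart, and each genotype of tumors has a library code of its own in the labels, so code and genotype cannot be told apart either.

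Milk proteins are made by luminal alveolar cells of the mammary gland in late pregnancy and lactation. Prolactin binds its receptor Prlr, the kinase Jak2 then activates the transcription factors Stat5a and Stat5b, and these act with Elf5, the glucocorticoid receptor and other factors at milk protein genes. Csn1s1, Csn1s2a, Csn1s2b and Csn2 are the calcium-sensitive caseins and Csn3, kappa-casein, keeps casein micelles in suspension. Wap is whey acidic protein, Lalba, alpha-lactalbumin, is the subunit that makes lactose synthase specific for lactose, Btn1a1 (butyrophilin) sits in the membrane of the secreted fat droplet, and Mfge8 (lactadherin) coats the fat globule and is also made outside the mammary gland. Glycam1 is made by mammary epithelium and also by high endothelial venules of lymph nodes.

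The 5 casein genes lie side by side on chromosome 5 (GRCm38). In this order come Csn1s1 (chr5:87666208-87682578, plus strand), Csn2 (chr5:87692624-87699630, minus strand), Csn1s2a (chr5:87774567-87788797, plus strand), Csn1s2b (chr5:87808082-87824426, plus strand) and Csn3 (chr5:87925579-87932665, plus strand). The calcium-sensitive caseins share the start of their coding sequence, which encodes the signal peptide, and these first 45 exonic coding bases are shown because they make the family visible that the counts below split into genes of unlike behavior. Capitals mark bases identical in Csn1s1, Csn2, Csn1s2a and Csn1s2b, 28 of the 45 positions, of which Csn3 shares 11 (GENCODE transcripts, GRCm38, read 5′ to 3′ on each gene's strand).
Csn1s1: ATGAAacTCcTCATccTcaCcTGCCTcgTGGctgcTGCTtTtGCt
Csn2: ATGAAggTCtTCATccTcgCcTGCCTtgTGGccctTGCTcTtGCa
Csn1s2a: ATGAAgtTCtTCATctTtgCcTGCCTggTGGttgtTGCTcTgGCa
Csn1s2b: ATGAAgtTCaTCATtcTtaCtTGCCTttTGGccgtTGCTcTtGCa
Csn3: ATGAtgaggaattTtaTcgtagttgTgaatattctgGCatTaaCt

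Despite this shared start, no 50-base window of any of the 10 main transcripts occurred in another gene's transcripts, so reads of that length name their gene. Csn3 overlaps the antisense gene 1700066N21Rik, and reads from the overlap cannot be told apart in the tumor libraries, which did not keep strand.

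The promoters of 7 of the 10 genes were listed by RefSeq (GRCm38.p6): Csn1s1, Csn1s2a, Csn2, Wap, Lalba, Glycam1 and Mfge8. They were searched for TTCNNNGAA, the core letters that Stat5 proteins bind, a pattern that reads the same on both strands. In the 250 bases before the start it occurred in 3 of the 7, Csn1s1 (bases -100 to -92), Csn2 (-93 to -85) and Glycam1 (-145 to -137), and in 7.02% of all 32851 promoters. The last 150 bases before the start are shown for these 3 genes and for Lalba, which lacks these letters and was far more abundant in the tumors than the other 3 (capitals mark TTCNNNGAA). They lie at chr5:87666058-87666207 (Csn1s1, plus strand), chr5:87699426-87699575 (Csn2, minus strand), chr15:103565082-103565231 (Glycam1, minus strand) and chr15:98482684-98482833 (Lalba, minus strand).
Csn1s1: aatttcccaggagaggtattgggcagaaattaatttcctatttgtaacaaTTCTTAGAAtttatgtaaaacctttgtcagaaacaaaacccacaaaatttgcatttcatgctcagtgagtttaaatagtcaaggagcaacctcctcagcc
Csn2: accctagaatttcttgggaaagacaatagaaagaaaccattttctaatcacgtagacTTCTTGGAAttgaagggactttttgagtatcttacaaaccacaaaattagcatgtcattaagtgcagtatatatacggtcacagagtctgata
Glycam1: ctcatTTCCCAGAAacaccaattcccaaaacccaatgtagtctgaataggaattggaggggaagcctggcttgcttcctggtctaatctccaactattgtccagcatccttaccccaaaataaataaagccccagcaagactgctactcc
Lalba: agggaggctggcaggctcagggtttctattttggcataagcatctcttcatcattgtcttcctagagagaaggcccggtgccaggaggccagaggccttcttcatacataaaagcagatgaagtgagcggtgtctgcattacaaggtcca

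Total counts were 49725437 to 64291587 per tumor and 33622831 to 40239762 per cell library, and levels are given as CPM, counts scaled per 1e6 counts of the library, with totals corrected for composition by TMM. Ctsd itself was 1740 to 2540 CPM in control tumors and 344 to 1280 in Ctsd-/- tumors, without overlap (log2 fold change -1.25, adjusted p = 0.463), and 1260 to 4050 in Ctsd+/+ against 118 to 197 in Ctsd-/- cells. The 10 luminal markers fixed for the check (keratins, claudins, Epcam, Cdh1, Elf3) summed to 5640 to 9820 CPM in tumors. They summed to 8270 to 17000 CPM in 9 cell libraries, but to only 1060 to 2540 in Ctsd+/+ cells in 1% FCS, where the 8 fibroblast markers summed to 1140 to 3300 CPM against 3.12 to 104 in the other cells. The fibroblast sum there came from Col1a1 (mean 1430 CPM), Pdgfrb (461) and Col3a1 (107), while Lum and Dpt were at 0. The labels call these libraries breast tumor cells like the rest. In whole tumors, fewer cells of a type and less RNA per cell cannot be told apart.

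In tumors the milk protein genes together took 1.88 to 2.26% of all counts in controls and 1.15 to 2.57% in Ctsd-/- tumors. Kappa-casein made up most of this, 70.5 to 85.1% of the members' counts, and Csn3 ranked between 1 and 4 among all genes in each of the 8 tumors. In control tumors 1 to 4 Csn3 stood at 13400, 16100, 17800 and 23300 CPM, and in Ctsd-/- tumors 1 to 4 at 19400, 13600, 7850 and 9350. The lowest levels were in Ctsd-/- tumors 3 and 4, but the genotypes overlapped.

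Levels of different genes were compared per kilobase of the main transcript. Over the 8 tumors the mean was 9460 CPM per kb for Csn3, 2090 for Lalba and 814 for Mfge8. Then came Wap (82.3), Csn2 (51.6), Csn1s1 (39.9), Csn1s2a (20.1), Btn1a1 (17.9), Csn1s2b (3.22) and Glycam1 (0.87). Csn3 therefore exceeded the 4 other caseins by a wide margin, whereas neighbors among Wap, Csn2 and Csn1s1 overlapped between tumors on this scale.

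**Figure D1:**
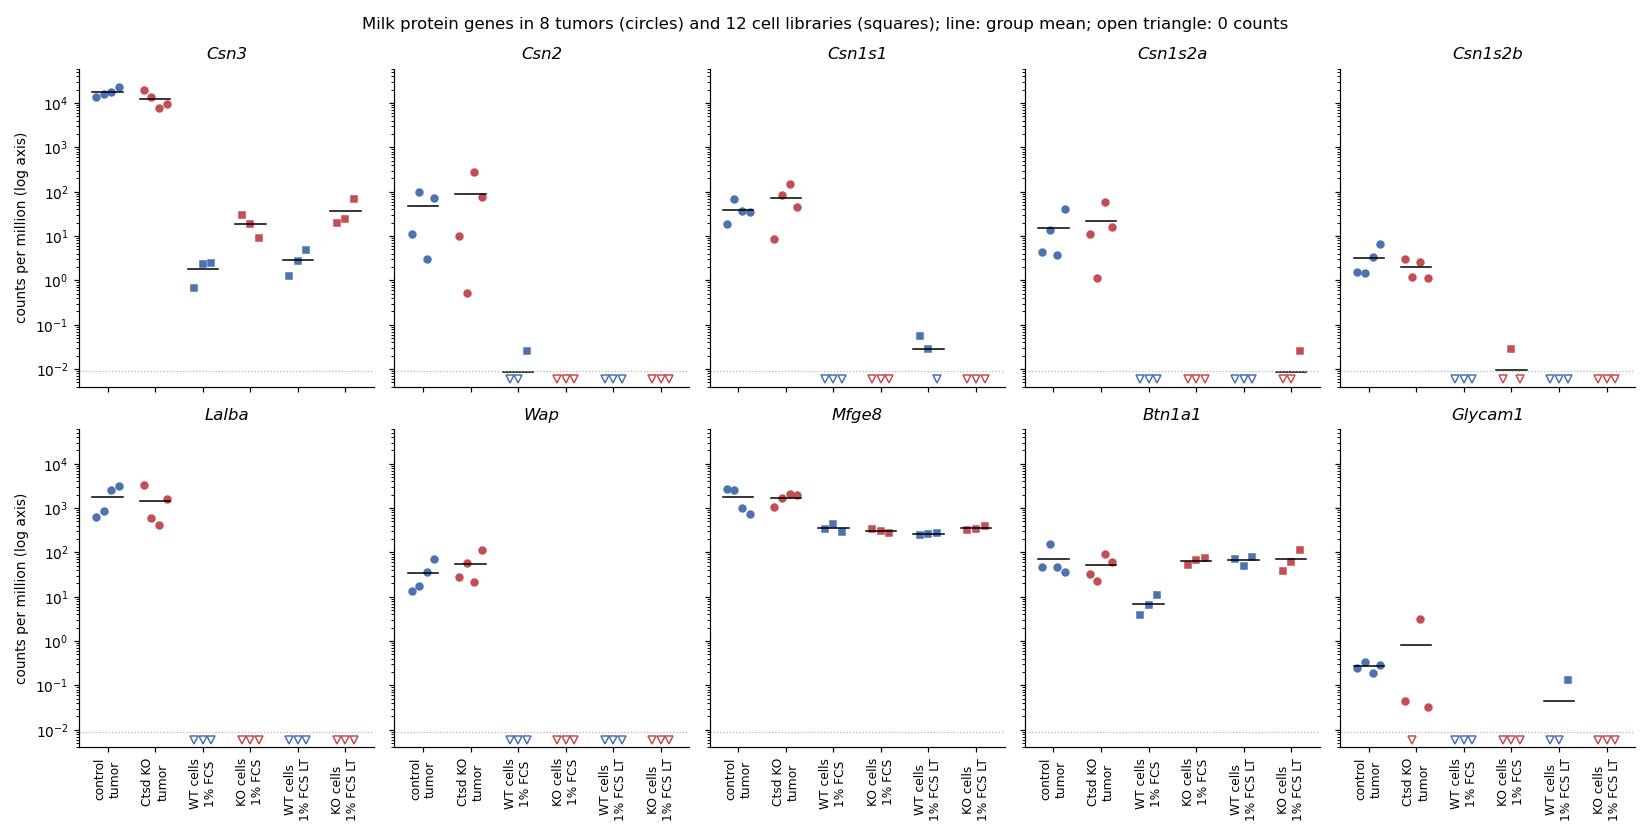
CPM (log axis) of each milk protein gene in every library of the 6 groups, with circles for tumors, squares for cells, blue for control or Ctsd+/+ (WT), red for Ctsd-/- (KO), black lines for group means and open triangles for libraries with 0 counts. All 10 genes had counts in tumors, and in cells Csn3 (0.665 to 68.5 CPM), Btn1a1 (3.79 to 111) and Mfge8 (247 to 435) were counted in every library.

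Levels of 3 of the calcium-sensitive caseins differed widely between tumors. Csn2, beta-casein, was 11.4, 100, 3.04 and 71.7 CPM in control tumors 1 to 4 and 10.0, 0.529, 276 and 74.8 CPM in Ctsd-/- tumors 1 to 4. The highest and the lowest tumor, 523-fold apart, were both Ctsd-/-, and they rested on 18728 and 36 counts. Csn1s2a ran from 3.80 to 40.7 CPM in controls (4.30, 13.5, 3.80 and 40.7) and from 1.13 to 57.3 CPM in Ctsd-/- tumors (10.9, 1.13, 57.3 and 16.0), with the extremes in the same Ctsd-/- tumors 2 and 3. Csn1s1 was 18.9, 68.0, 36.2 and 35.4 CPM in controls and 8.68, 85.4, 153 and 45.4 CPM in Ctsd-/- tumors. Here Ctsd-/- tumor 2 was second highest of the 8, although it had the lowest Csn2 and Csn1s2a. Csn1s2b stayed between 1.12 and 6.46 CPM.

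The whey proteins followed other tumors. Lalba was 640, 853, 2490 and 3090 CPM in controls and 3230, 582, 419 and 1580 CPM in Ctsd-/- tumors. The tumor with most Csn2, Ctsd-/- tumor 3, had the least Lalba and the least Csn3. Wap was 13.2, 17.5, 36.3 and 72.5 CPM in controls and 28.0, 58.5, 21.8 and 115 CPM in Ctsd-/- tumors, highest in Ctsd-/- tumor 4.

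Of the fat globule genes, Mfge8 was 2690, 2580, 1010 and 717 CPM in controls and 1040, 1690, 2080 and 2020 CPM in Ctsd-/- tumors, lowest in the controls with most Lalba. Btn1a1 was 47.8, 152, 45.7 and 36.6 CPM in controls and 32.1, 22.3, 92.7 and 59.4 CPM in Ctsd-/- tumors, with 1 control tumor far above the others. Glycam1 was barely counted, at 0.194 to 0.345 CPM in controls and at 0.0435, 0 and 0.0325 CPM in Ctsd-/- tumors 1, 2 and 4, but at 3.22 CPM (218 counts) in Ctsd-/- tumor 3.

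**Figure D2:**
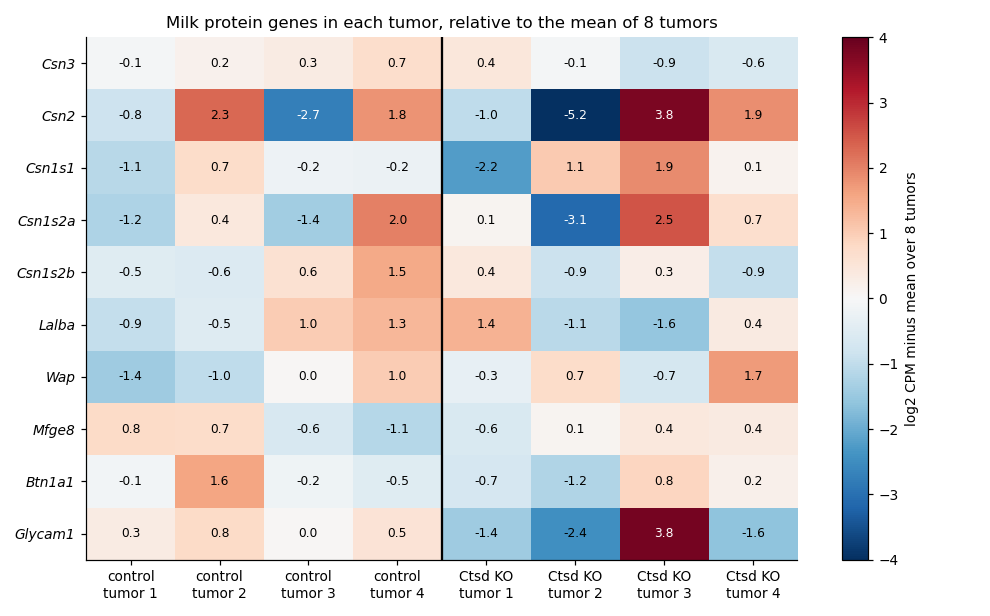
Log2 CPM of each milk protein gene (lines of the map) in each of the 8 tumors (columns) minus its mean over the 8, in red above and blue below the mean, with colors capped at 4 and the vertical line between control and Ctsd-/- (KO) tumors. Csn2 ranged from -5.16 in Ctsd-/- tumor 2 to 3.76 in Ctsd-/- tumor 3, while Csn3 stayed between -0.86 and 0.71.

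The spread between tumors of the same genotype, as the SD of log2 CPM pooled over both genotypes, had a median of 1.17 over the 10 genes and 0.48 over all 18617 genes tested. Csn2 had the largest SD of the 10, 3.21 (2.36 in controls, 3.88 in Ctsd-/- tumors), and 7 of all genes exceeded it. Glycam1 (2.04) and Csn1s2a (2.00) lay above 99.5% and 99.4% of genes, the former through 1 tumor, with an SD of 0.30 among controls. Csn1s1 (1.37), Lalba (1.24) and Wap (1.09) lay above at least 90.6% of genes, and Btn1a1 (0.92), Csn1s2b (0.87) and Mfge8 (0.76) above 77.1 to 85.1%. Csn3, the most abundant, had an SD of 0.47, near the median of all genes. The spread had a median of 0.99 over the members without Ctsd-/- tumor 3. Among the 5433 genes with a mean log2 CPM above 5, the median SD was 0.35.

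**Figure D3:**
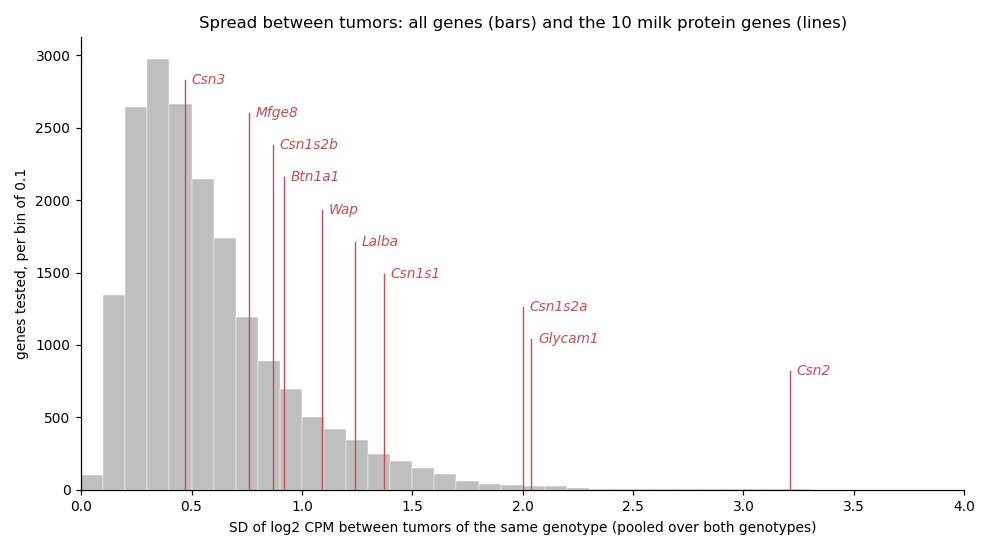
Number of genes (gray bars, bins of 0.1) by the SD of log2 CPM between tumors of the same genotype, with a red line for each milk protein gene whose height carries no value. Csn3 (0.47) sits at the bulk of the 18617 genes and Csn2 (3.21) in the far tail.

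Pairs of members differed in how their levels ran together. Over the 8 tumors, Pearson's r of log2 CPM was 0.93 for Csn2 with Csn1s2a (Spearman's rho 0.88), 0.75 for Csn2 with Btn1a1 (0.86) and 0.71 for Csn3 with Lalba (0.81). It was -0.82 for Lalba with Mfge8 (rho -0.67), -0.69 for Csn3 with Mfge8 (-0.71) and -0.66 for Csn1s1 with Lalba (-0.76). Csn2 and Csn3, both of the casein locus, had an r of -0.32, and Csn2 and its neighbor Csn1s1 of 0.26. These are descriptions over 8 whole tumors of both genotypes. Marker sums of cell types differed between these tumors, as given below, and were not accounted for in r. Between the casein genes lie Odam, which also encodes a secreted protein, at 0.705 to 2.85 CPM in tumors, and Prr27, at 0 to 2.01.

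Ranked by r with Csn2 over the 8 tumors among 18616 genes, Csn1s2a stood at position 10, Btn1a1 at 297, Glycam1 at 542, Csn1s1 at 4646 and Csn3 at 15276. Without the 2 tumors farthest from the median of Csn2, r was 0.805 for Csn1s2a, 0.553 for Csn1s1 (0.259 over the 8), 0.519 for Btn1a1, 0.341 for Wap (-0.097 over the 8) and 0.101 for Glycam1. The 5 genes most like Csn2 were Rem1 (r = 0.984), Sele (0.979), Slc7a6 (0.978), Dach1 (0.970) and Hmces (0.958). Of these, Sele encodes the endothelial adhesion molecule E-selectin. Levels were low for Rem1 (0.323 to 3.61 CPM), Sele (0.103 to 1.27) and Dach1 (0.397 to 2.29), and higher for Slc7a6 (2.70 to 18.1) and Hmces (18.7 to 28.0). This is the top of a ranking of 18616 genes over 8 tumors, with no test.

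Loss of Ctsd in the tumor epithelium came with no milk protein gene past the threshold. With edgeR's quasi-likelihood test, 0 of the 10 had a Benjamini-Hochberg adjusted p under 0.05, where 0.00537% of all genes tested had, and DESeq2 and limma-voom also called 0. At the unadjusted p under 0.1 that the study used for tumors there were also 0 of 10, against 16.7% of genes, and 0 of 10 had genotypes that did not overlap, against 4.09%. In Ctsd-/- tumors 5 members had a higher and 5 a lower fitted level, with a median log2 fold change (FC) of 0.19 (0.00 over all genes).

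The log2 FC was -0.49 for Csn3 (SE 0.355, adjusted p = 0.666), -0.28 for Lalba (SE 0.687, adjusted p = 0.900) and -0.05 for Mfge8 (SE 0.437, adjusted p = 0.979). These values leave room for large differences, since the approximate 95% interval runs from -1.19 to 0.20 for Csn3, -1.62 to 1.07 for Lalba and -0.90 to 0.81 for Mfge8. For Csn2 the value was 0.93 (SE 1.38, adjusted p = 0.828, interval -1.78 to 3.64), and for Csn1s1 0.87 (SE 0.672, adjusted p = 0.685). Wap (0.67), Csn1s2a (0.43), Csn1s2b (-0.70), Btn1a1 (-0.47) and Glycam1 (1.58) had adjusted p-values of 0.688 to 0.892.

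Markers of other cell types differed between the tumors too. The 10 adipocyte markers summed to 872 to 5810 CPM in controls and 3930 to 27100 CPM in Ctsd-/- tumors, and 10 of 10 were higher at p under 0.1. In control tumors 1 to 4 this sum was 1240, 3740, 872 and 5810 CPM, and in Ctsd-/- tumors 1 to 4 it was 8500, 3930, 13700 and 27100. Its highest value was in Ctsd-/- tumor 4, followed by Ctsd-/- tumor 3, the tumor with most Csn2. With the adipocyte level as a covariate, the log2 FC turned to -5.76 for Csn2, -3.02 for Csn1s2a, -0.08 for Wap and -2.83 for Glycam1. In that fit 3 of the 10 members (Csn2, Csn1s2a and Btn1a1) passed p under 0.1, where 1334 of all 18617 genes did. The part of fat in the members' levels was not tested further. High endothelial venule markers other than Glycam1 summed to 4.95 to 38.5 CPM in controls and to 0.969 to 14.2 CPM in Ctsd-/- tumors. They did not move together: Ccl21a averaged 3.94 CPM in Ctsd-/- and 26.2 in control tumors, Madcam1 2.10 and 0.131, and Fut7 0.436 and 0.405. Ctsd-/- tumor 3, the tumor with most Glycam1, held the 14.2, less than control tumors 1 to 3. Endothelial markers summed to 46.1 to 103 CPM in controls and 59.4 to 254 CPM in Ctsd-/- tumors, highest in Ctsd-/- tumors 3 and 4, and 4 of 5 were higher at p under 0.1, as were 4 of 5 brown fat markers. Skeletal muscle markers summed to 928 CPM in control tumor 4, the tumor with most Csn3 in CPM, and to 3.49 to 17.4 in the other controls. In Ctsd-/- tumors they summed to 6.84 to 226 CPM, highest in Ctsd-/- tumor 1. As a share of counts, before TMM, Csn3 was 1.92% in control tumor 4 and 2.09% in Ctsd-/- tumor 1. Of the salivary gland markers 3 of 6 were tested, and 1, Amy1, was higher at p under 0.1 (106 against 11.9 CPM), while Bpifa2 and Smr2 had log2 FCs of -0.51 and 0.10. The part of these markers in the members' levels was not tested.

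Of 17 other milk protein genes, 0 passed the adjusted threshold between tumor genotypes, and 3 were higher and 1 lower at p under 0.1, where 16.7% of all genes passed in either direction. The one named by the rule, Lpl, the lipase that frees fatty acids for milk fat and also an adipocyte gene, was 1130 ± 987 CPM in the 4 Ctsd-/- and 139 ± 86.3 CPM in the 4 control tumors (mean ± SD; log2 FC 3.01, adjusted p = 0.401). Wfdc18, a whey acidic protein relative, was 5080 ± 2540 and 10500 ± 6150 CPM. Of 22 genes for milk fat, lactose and transport, 6 were higher at p under 0.1, with Fasn, the fatty acid synthase, at 2330 ± 1990 against 194 ± 67.1 CPM (log2 FC 3.57, adjusted p = 0.292) and Acaca, which feeds it, at 299 ± 250 against 36.7 ± 13.9. Both are also adipocyte genes. Of 20 regulators, 2 were higher at p under 0.1, beside the same 16.7% of all genes. They were the growth hormone receptor Ghr (127 ± 58.5 against 61.4 ± 13.4 CPM, log2 FC 1.04, adjusted p = 0.489) and Prlr (269 ± 175 against 152 ± 36.5 CPM, log2 FC 0.81, adjusted p = 0.569).

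In culture most of the milk protein genes were at or near 0. The members took 0.0295 to 0.0565% of counts in the 12 cell libraries. Lalba and Wap had 0 counts in each of them, which allows up to 0.00835 CPM over all cells (exact Poisson, 95%, counting error only). Csn2, Csn1s2a and Csn1s2b had 1 count each over the 12 libraries, Csn1s1 had 3 and Glycam1 had 5, the latter all in 1 Ctsd+/+ 1% FCS LT library. The 3 other members, Csn3, Btn1a1 and Mfge8, were the only ones that passed the filter on low counts in cells.

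Cells in 1% FCS were set against tumors of the same genotype in 1 fit over all 20 libraries. The 7 members at or near 0 in cells passed its filter on low counts only through the tumors, where they were counted, so that filter fixed the side on which they fell. The counts of members called are therefore a description. In Ctsd+/+ cells 9 of 10 were called lower than in control tumors (adjusted p under 0.05 and log2 FC beyond 1), where 39.8% of all genes were, and in Ctsd-/- cells 9 of 10 were lower than in Ctsd-/- tumors, against 39.7%. Groups did not overlap for 10 and 8 members, against 72.9% and 75.9% of genes. Nothing is read from these shares. Material, stage of the tumor of origin, RNA input, strand of the libraries and sequencing differ together between tumors and cells and cannot be told apart.

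Against the limit of 3 counts in the smallest cell library, Lalba was at least 19400-fold lower in Ctsd+/+ cells in 1% FCS than in control tumors and at least 16100-fold lower in Ctsd-/- cells than in Ctsd-/- tumors. The same bounds were 382-fold and 619-fold for Wap, 434-fold and 809-fold for Csn1s1, and 171-fold and 237-fold for Csn1s2a. Csn2 was at least 1000-fold lower in Ctsd-/- cells. In Ctsd+/+ cells, with 1 count, control tumors exceeded it 4940-fold (counting interval 886 to 195000). These bounds follow the level in tumors, so a weaker bound does not mean a smaller loss.

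Csn3 fell furthest among the members still counted, with log2 FCs of -13.23 in Ctsd+/+ cells (SE 0.907, adjusted p = 6.05e-10) and -9.36 in Ctsd-/- cells (SE 0.786, adjusted p = 7.35e-09). Mfge8 was lower by a similar step in both genotypes, with log2 FCs of -2.32 (SE 0.382, adjusted p = 2.46e-05) and -2.49 (SE 0.385, adjusted p = 1.28e-05). Btn1a1 was lower in Ctsd+/+ cells (log2 FC -3.34, SE 0.587, adjusted p = 4.94e-05), while in Ctsd-/- cells its log2 FC was 0.34 (SE 0.508, adjusted p = 0.554, 95% interval -0.66 to 1.33). Glycam1 was not called in Ctsd+/+ cells (adjusted p = 0.0637), and its call in Ctsd-/- cells was lost without Ctsd-/- tumor 3 or without Ctsd-/- cell library 1, and with limma-voom. With at least 10 counts required in every library, 3 and 2 members were called, since the members at 0 in cells were no longer tested.

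Between the cell lines, kappa-casein was higher in Ctsd-/- cells. In 1% FCS, Csn3 was 0.665, 2.34 and 2.48 CPM in the Ctsd+/+ libraries and 29.4, 19.1 and 8.81 in the Ctsd-/- libraries. In 1% FCS LT it was 1.24, 2.76 and 4.81 CPM in Ctsd+/+ and 19.7, 24.3 and 68.5 in Ctsd-/- cells. The genotypes did not overlap at either time. The log2 FC was 3.34 in 1% FCS (SE 0.679, adjusted p = 0.0017) and 3.68 in 1% FCS LT (SE 0.674, adjusted p = 0.00112), and the difference between the 2 was 0.34 (SE 0.894, adjusted p = 0.809). With the time in culture the level did not pass the threshold in Ctsd-/- cells (0.95, SE 0.601, adjusted p = 0.448) or in Ctsd+/+ cells (0.60, SE 0.664, adjusted p = 0.485). Even at its highest, 68.5 CPM, Csn3 in cells stayed below the lowest tumor, at 7850.

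Butyrophilin differed between the lines at 10 days and not detectably at 12 weeks. Btn1a1 was 3.79, 6.45 and 10.7 CPM in Ctsd+/+ and 52.9, 67.8 and 74.7 in Ctsd-/- cells in 1% FCS. In 1% FCS LT it was 70.6, 50.5 and 79.6 in Ctsd+/+ and 38.3, 60.4 and 111 CPM in Ctsd-/- cells. The Ctsd+/+ libraries in 1% FCS thus lay below the 9 others. The log2 FC of Ctsd-/- against Ctsd+/+ cells was 3.17 in 1% FCS (SE 0.421, adjusted p = 8.19e-05) and 0.07 in 1% FCS LT (SE 0.380, adjusted p = 0.908, 95% interval -0.68 to 0.81), with an interaction of -3.11 (SE 0.557, adjusted p = 0.00152). With time, Btn1a1 rose in Ctsd+/+ cells (3.19, SE 0.421, adjusted p = 9.1e-05), and in Ctsd-/- cells the value was 0.08 (adjusted p = 0.949).

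Lactadherin moved little. Mfge8 lay between 247 and 435 CPM in all 12 cell libraries, at 351 ± 75.9, 303 ± 32.4, 258 ± 12.8 and 348 ± 40.6 CPM (SD, n = 3) in Ctsd+/+ and Ctsd-/- cells in 1% FCS and in Ctsd+/+ and Ctsd-/- cells in 1% FCS LT. In 1% FCS LT it was higher in Ctsd-/- cells by 0.44 (SE 0.149, adjusted p = 0.035), and in Ctsd+/+ cells it fell by 0.52 with time (SE 0.149, adjusted p = 0.0126), both without overlap but under the log2 FC of 1. Its difference between genotypes in 1% FCS was -0.26 (SE 0.148, adjusted p = 0.162). The 5 genes most like Mfge8 over the 12 cell libraries were Slc20a1 (r = 0.920), Usp34 (0.910), Serinc1 (0.903), Tmem268 (0.903) and Edem3 (0.891), while r was 0.331 for Csn3 and -0.357 for Btn1a1. This is a description over libraries of 2 lines.

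**Figure D4:**
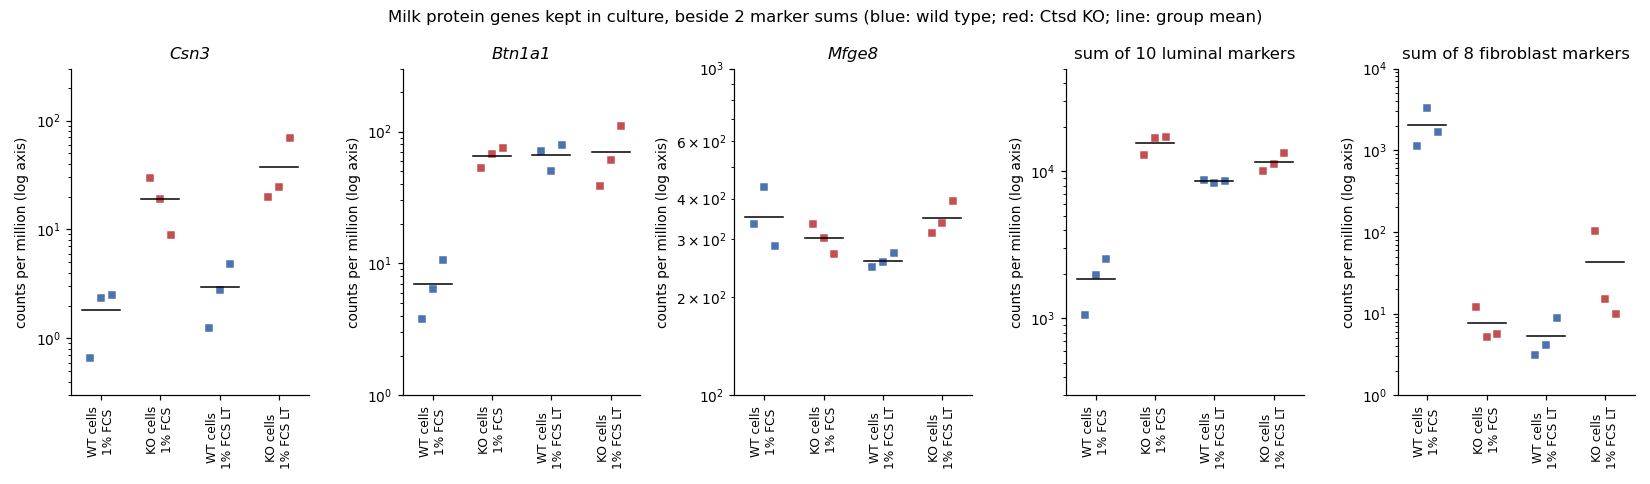
CPM (log axes that differ between panels) of Csn3, Btn1a1 and Mfge8 in the 12 cell libraries, beside the sums of 10 luminal and 8 fibroblast markers, with blue for Ctsd+/+ (WT), red for Ctsd-/- (KO) and black lines for group means. Btn1a1 (3.79 to 10.7 CPM) and the luminal sum (1060 to 2540 CPM) were lowest, and the fibroblast sum (1140 to 3300 CPM) highest, in Ctsd+/+ cells in 1% FCS.

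Of the 3 members tested in cells, 2 were called between genotypes in 1% FCS, against 25.0% of all genes, 1 in 1% FCS LT (19.4%), 0 over time in Ctsd-/- cells (1.48%, also 0 with DESeq2 and limma-voom), 1 over time in Ctsd+/+ cells (23.4%) and 1 in the interaction (19.1%). Groups did not overlap for 2, 2, 0 and 2 of the 3 in the first 4 of these, against 55.5%, 54.0%, 25.3% and 53.8% of genes. These comparisons share libraries. The 10 luminal markers moved with Btn1a1: 10 of 10 were called higher in Ctsd-/- than in Ctsd+/+ cells in 1% FCS (median log2 FC 3.14), 10 of 10 rose in Ctsd+/+ cells over time (2.50) and 10 of 10 were lower in the interaction (-2.87). Of the 8 fibroblast markers 5 were tested, and 5 were lower in Ctsd-/- cells in 1% FCS (median -8.87). Csn3 did not share this pattern, with no called change over time in Ctsd+/+ cells, and the part of the markers in these results was not tested.

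Within the 8 cell libraries that carry the same library code in the labels, Csn3 was still higher in Ctsd-/- cells in 1% FCS (log2 FC 2.50, adjusted p = 0.00245) and in 1% FCS LT (3.46, adjusted p = 0.000818). Btn1a1 kept its difference in 1% FCS (3.02, adjusted p = 0.000188), its rise in Ctsd+/+ cells (2.77, adjusted p = 0.0003) and its interaction (-3.32, adjusted p = 0.000929). The interaction of Mfge8 was 0.74 there (adjusted p = 0.0689) and its difference in 1% FCS LT 0.37 (adjusted p = 0.148).

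The receptor of the pathway was near 0 in culture as well. Prlr averaged 152 CPM in control and 269 in Ctsd-/- tumors but 0.0879 to 0.457 CPM in the 4 cell groups, and Elf5, the transcription factor that drives alveolar differentiation, averaged 149 and 143 CPM in tumors and 0.0425 to 0.241 in cells. In 1% FCS against tumors the log2 FC of Prlr was -9.48 (SE 0.839, adjusted p = 1.34e-08) in Ctsd+/+ and -10.93 (SE 0.892, adjusted p = 5.07e-09) in Ctsd-/- cells. For Elf5 it was -9.52 (SE 0.592) and -9.14 (SE 0.576). Elf5 passed the filter on low counts only through the tumors, which fixed its side, so its values are a description. For Id2, an inhibitor of helix-loop-helix factors needed for alveolar growth, the log2 FC was -4.07 (SE 0.624) in Ctsd+/+ cells. Pgr, the progesterone receptor, had 0 counts in Ctsd-/- cells in 1% FCS and 4.07 ± 4.30 CPM in Ctsd-/- tumors. The signaling genes below the receptor were still counted in each cell group, Stat5a at means of 12.0 to 34.9 CPM and Stat5b at 35.2 to 78.8 CPM, as was Gata3, a luminal transcription factor (37.5 to 98.2 CPM, against 328 and 394 in tumors). Of 20 regulators, 4 were called higher and 8 lower in Ctsd+/+ cells in 1% FCS than in control tumors, and 3 higher and 7 lower in Ctsd-/- cells than in Ctsd-/- tumors, shares of lower genes close to the 39.8% and 39.7% of all genes.

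Several other milk protein genes were also near 0 in cells in 1% FCS. Of the 17, 10 were also tested in the fit of cells alone, among them Wfdc18 and Ltf. Pigr, Cd36 and Lao1 were not tested there, and passed the filter through the tumors. Of 17, 15 were lower and 1 higher in Ctsd+/+ cells in 1% FCS than in control tumors. In Ctsd-/- cells 16 were lower and 1 higher than in Ctsd-/- tumors. Of all genes, 39.8% and 39.7% were lower in these comparisons, and nothing is read from the counts. Wfdc18 was 0.282 ± 0.317 CPM in Ctsd+/+ cells and 10500 ± 6150 in control tumors, Ltf, the iron-binding lactoferrin, 0.0174 ± 0.0301 and 1390 ± 1350, and Pigr, which carries immunoglobulin A into milk, had 0 counts in these cells against 96.9 ± 30.8 CPM. In Ctsd-/- cells Wfdc18, the fatty acid carrier Cd36 and Lao1, an amino acid oxidase of milk, averaged 0.00831, 0.01 and 0 CPM, against 5080, 504 and 106 in Ctsd-/- tumors. Ltf was higher in Ctsd+/+ cells in 1% FCS LT, at 19.7 ± 20.5 CPM (log2 FC over time 9.72, adjusted p = 8.02e-05). Ctsd-/- cells in 1% FCS LT had 1.27 ± 0.207 CPM of Ltf. Spp1 was not near 0, with means of 263 to 1900 CPM in the 4 cell groups. Of the 22 genes for milk fat, lactose and transport, 5 were higher and 11 lower in Ctsd+/+ cells in 1% FCS than in control tumors. In Ctsd-/- cells 0 were higher and 11 lower than in Ctsd-/- tumors. The same shares of all genes stand beside these counts, and nothing is read from them. The 5 higher in Ctsd+/+ cells were Fasn (2210 against 194 CPM), Acaca (248 against 36.7), Acly (925 against 231), Slc2a1 (183 against 70.7) and Lpin1 (74.3 against 35.8). Fasn was 2120 CPM in Ctsd-/- cells and 2330 in Ctsd-/- tumors. Thrsp, Slc34a2 and Tph1 passed the filter only through the tumors. Thrsp, which promotes fat synthesis, averaged 854 and 1820 CPM in the 2 groups of tumors and 0.0386 and 0.00935 in the cells. Slc34a2, the phosphate transporter, averaged 28.3 and 36.4 CPM in tumors and 0.0396 and 0.00935 in cells, and Tph1, which starts serotonin synthesis, 11.7 and 12.2 against 0.

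Of the 20 regulators 19 were tested in cells. In 1% FCS 2 were called higher and 5 lower in Ctsd-/- cells, where 25.0% of all genes were called, with Foxa1, a luminal pioneer factor, at 6.63 ± 0.442 against 1.16 ± 0.352 CPM (adjusted p = 7.17e-05) and Stat5a at 12.0 ± 4.54 against 34.9 ± 19.3 (adjusted p = 0.00904). Erbb4, a receptor that activates Stat5a, was 0.0332 against 0.343 CPM there and 0.0252 against 0.477 CPM in 1% FCS LT. In 1% FCS LT 3 were higher and 1 lower (19.4% of all genes), with Socs2, a Stat5 target that dampens cytokine signaling, at 106 ± 13.8 against 18.1 ± 11.2 CPM (adjusted p = 0.000361) and Ghr, the growth hormone receptor, at 173 ± 25.7 against 71.4 ± 11.4 (adjusted p = 0.000137). Over time 1 regulator rose and 3 fell in Ctsd+/+ cells (23.4% of all genes), Foxa1 to 9.01 ± 1.41 CPM (adjusted p = 2.75e-05), Socs2 from 54.3 ± 19.4 (adjusted p = 0.00402) and Gata3 from 98.2 ± 35.1 to 37.5 ± 6.94 CPM (adjusted p = 0.00285). In Ctsd-/- cells 0 were called in either direction over time (1.48% of all genes). In the interaction 3 were higher and 1 lower (19.1% of all genes), the latter Foxa1 (-2.26, adjusted p = 0.00212). Among the higher were Gata3 (1.53, adjusted p = 0.0237) and Ghr (1.29, adjusted p = 0.00198).

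**Figure D5:**
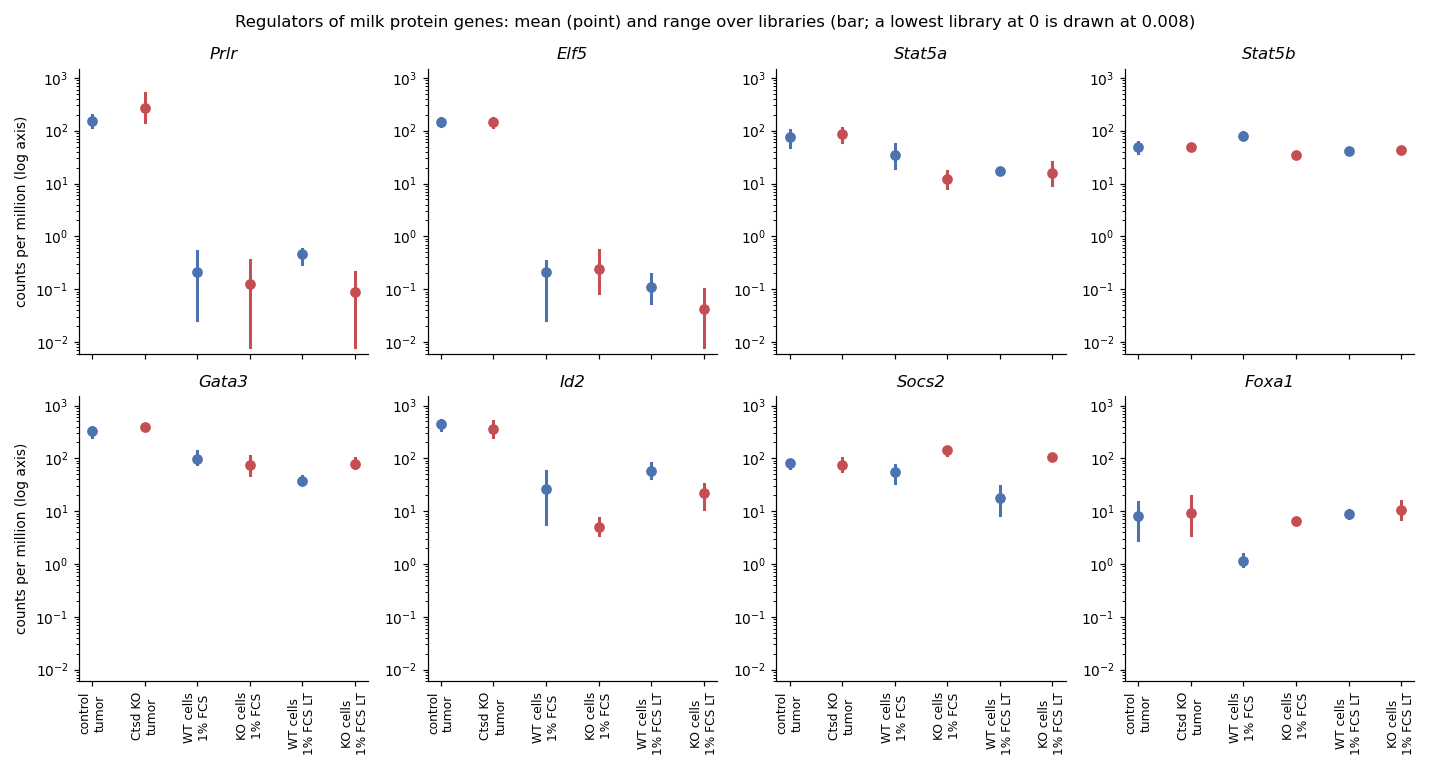
Mean (points) and range over libraries (bars) of 8 regulators in CPM (log axis) in the 6 groups, blue for control or Ctsd+/+ (WT) and red for Ctsd-/- (KO). Prlr and Elf5 averaged 143 to 269 CPM in tumors and at most 0.457 CPM in cells, while the group means of Stat5b were 35.2 to 78.8 CPM.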

How the data were processed

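RNA-seq was done on 8 tumors and 12 libraries of cultured tumor cells. The authors deposited raw read counts per gene from STAR (version not given in the sources used here) after trimming with Trimmomatic, on mm10 (GRCm38). For tumors, whose reads fell about evenly on both strands (52.82 to 53.66% on the opposite strand), the deposited counts regardless of strand were used. For cells (97.09 to 97.29%) the counts of the opposite strand were used. Columns of other series numbered 0. Reads that STAR called ambiguous made up 7.11 to 15.57% in tumors and 1.11 to 1.25% in cells.

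Members and gene lists were chosen with earlier results of these data known. The text names all 10 members. It also names the 5 genes most like Csn2 in tumors and most like Mfge8, the member highest in cells. From each list (regulators, other milk proteins, milk fat, lactose and transport) a rule took up to 3 genes per comparison. These had the largest log2 FC among called genes whose groups do not overlap. Within cells, genes taken by this rule are given for regulators only, apart from Ltf. Genes of the other 2 lists were also called between cell groups and are not described. Prlr, Wfdc18, Spp1, the genes for milk fat, lactose and transport higher in cells, and the regulator levels given beyond this rule were chosen after their values were seen. Genes were filtered with filterByExpr, scaled by TMM and tested with edgeR 4.0.16 (quasi-likelihood test, R 4.3.3) in separate fits for tumors (18617 genes), cells (15178 genes, 4 groups) and both (19180 genes, 6 groups), with Benjamini-Hochberg adjustment over all genes. The study used limma. Genes in cells and against tumors were called at adjusted p under 0.05 and a log2 FC beyond 1, genes between tumors at adjusted p under 0.05 and also at unadjusted p under 0.1. Log2 CPM used a prior count of 2. Lower bounds of folds rest on 3 counts, and 95% intervals of counts cover counting error only. Intervals of log2 FCs are normal approximations from the SE. The sources call the libraries of a group independent experiments. Where these were not separate cultures, p-values measure only the spread between these libraries. Alternatives were limma-voom (limma 3.58.1), DESeq2 1.42.0, RLE size factors, other filters, covariates, a replicate block, 1 library code alone and leaving out each library. The fits were tested on simulated data. The replicate numbers of the labels were not taken as pairs.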

Additional observations from a re-analysis of the deposited data

Results flagged for a closer look

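In 22 groups of 4 tumors (the 10 members and Ctsd in both genotypes), 2 held a tumor that stood apart, where chance gives about 1 in 20. Glycam1 was 3.22 CPM in Ctsd-/- tumor 3, with a gap to the next tumor of 0.986 of the group's range. Btn1a1 was 152 CPM in control tumor 2, with a gap of 0.903 of the range. In cells, the effect of genotype on Btn1a1 differed between 1% FCS LT and 1% FCS by a log2 FC of -3.11 (edgeR interaction, adjusted p = 0.00152), and that on Mfge8 by 0.70 (adjusted p = 0.0255).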

How the results depend on the processing

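Between tumor genotypes 1 gene was called at the adjusted threshold, 265 with DESeq2, 33 without a filter on low counts, 2 with limma-voom and 0 with at least 10 counts in every library. At unadjusted p under 0.1 the 3112 genes became 5437 without the filter, 1334 with the adipocyte covariate and 1807 to 4465 leaving out 1 tumor. The count of members there was 0, then 3 with the adipocyte covariate, and 0 to 2 leaving out 1 tumor (Csn1s1 and Csn3 without Ctsd-/- tumor 1, Glycam1 without Ctsd-/- tumor 3, Wap without control tumor 4). Between tumor genotypes Csn1s1, Csn1s2b and Csn3 kept their direction under each alternative run, and the other 7 members turned under at least 1. With limma-voom the log2 FC was -0.25 for Csn2, -1.67 for Glycam1 and 0.15 for Mfge8. With the adipocyte covariate it was -3.02 for Csn1s2a, -5.76 for Csn2, -0.08 for Wap and -2.83 for Glycam1, and with the luminal covariate 0.10 for Mfge8. Leaving out 1 tumor gave -0.90 to 0.23 for Btn1a1, -0.74 to 1.55 for Csn1s2a, -0.73 to 1.62 for Csn2, -3.31 to 2.00 for Glycam1, -1.06 to 0.14 for Lalba and -0.30 to 0.25 for Mfge8. The cause was not tested.

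The replicate block is an alternative only, since no pair of groups met the rule that every same-numbered pair correlate over 0.1. Deviations of same-numbered tumors had r of -0.303 to -0.00755. In cells r was 0.362, 0.09997 and 0.299 between genotypes in 1% FCS (means with other numbers -0.189, -0.0334 and -0.156), 0.206, 0.0680 and 0.248 between Ctsd-/- cells in 1% FCS LT and Ctsd+/+ cells in 1% FCS, 0.192, 0.0766 and 0.173 between the times in Ctsd-/- cells, and -0.295 to 0.119 in the other pairs of cell groups. The block changed no count of members called, gave 1816 genes at p under 0.1 in tumors and 241 over time in Ctsd-/- cells, and turned Csn2 to -0.08, Glycam1 to -1.91 and Mfge8 to 0.14 in tumors and Btn1a1 to -0.06 between genotypes in 1% FCS LT and -0.03 over time in Ctsd-/- cells.

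In cells the calls of Csn3 between genotypes (log2 FC 2.50 to 3.68 in 1% FCS, 2.92 to 4.22 in 1% FCS LT) and of Btn1a1 (1% FCS, time in Ctsd+/+ cells, interaction) were kept under each alternative run. Values near 0 turned: Btn1a1 in 1% FCS LT to -0.05 with limma-voom and -0.30 within 1 library code (-0.43 to 0.36 leaving out 1 library), Btn1a1 over time in Ctsd-/- cells to -0.04 and -0.55 (-0.42 to 0.37), Csn3 over time in Ctsd+/+ cells to -0.33 within 1 code, and the interaction of Csn3 to between -0.42 and 0.89 leaving out 1 library. Ctsd ran from -0.04 to 0.71 in Ctsd+/+ cells against control tumors. Over time in Ctsd+/+ cells Ctsd ran from -1.03 to -0.26. Its interaction ran from 0.00 to 0.76. Genes called over time in Ctsd-/- cells (225) became 502 with DESeq2, 475 without the filter, 484 within 1 code and 48 to 291 leaving out 1 library. With at least 10 counts in every library, fewer genes were tested, and 2165, 1673, 117 and 2099 were called in cells (genotype in 1% FCS, in 1% FCS LT, time in Ctsd-/- and in Ctsd+/+ cells), and against tumors 6717 with 3 members in Ctsd+/+ and 6131 with 2 members in Ctsd-/- cells, where Btn1a1 was -0.02. In Ctsd-/- cells against tumors 8 to 9 members were called leaving out 1 library, Glycam1 being lost without Ctsd-/- cell library 1 or Ctsd-/- tumor 3, and 8 with DESeq2. The median spread of the members was 0.99 to 1.24 leaving out 1 tumor and 1.17 with a prior count of 0.5, both chosen after seeing the data. Of 672 alternatives for log2 FCs of members, 633 kept direction and call. Depth limits the 7 members at or under 5 counts in cells to upper bounds.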
